A study of Mus musculus with 9 samples.

Results

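Small RNA libraries of the tibialis anterior (TA) muscle were used to follow the 6 mature arms of 3 miRNA hairpins in cancer cachexia, mmu-miR-21a-5p, mmu-miR-21a-3p, mmu-miR-221-3p, mmu-miR-221-5p, mmu-miR-222-3p and mmu-miR-222-5p. They were chosen by name, for the place that miR-21, miR-221 and miR-222 have in muscle injury, regeneration and tumor vesicles, and are 6 of the 1915 mature miRNAs listed in the count tables. The control group was 4 mice injected with PBS. The LLC group was 5 mice that received 750000 Lewis Lung Carcinoma (LLC) cells, a mouse lung carcinoma cell line, under the skin of each flank, and their muscles were collected 22 days later. The sample labels name C57BL/6J mice of 10 weeks, whereas the description of the study names male C57BL/10 mice of 8 weeks; both groups shared strain and age, were injected in both flanks, and no engineered allele is named for either. The muscle was taken whole, so its fibres, vessels, nerves, connective tissue and blood cells are in each library together.

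A hairpin precursor is cut into a duplex of a 5p and a 3p arm, and one arm, the guide, usually enters an Argonaute protein, where its seed (bases 2 to 8) pairs with target mRNAs, while the other arm is mostly degraded. miR-21 is among the miRNAs most often raised by injury, inflammation and fibrosis, represses transcripts such as Pdcd4, and has been found in vesicles that tumor cells release. miR-221 and miR-222 come from neighbouring hairpins, repress the cell cycle inhibitor Cdkn1b, and are known to decline as myoblasts leave the cell cycle and to be raised again after muscle damage. The comparison of the LLC with the control group asks whether these arms differ in the cachectic muscle.

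The mature sequences are shown first because the seeds divide the arms into separate families. RefSeq (GRCm38.p6) held 5 of the 6 arms, written 5′ to 3′ with the seed in capitals.
mmu-miR-21a-5p: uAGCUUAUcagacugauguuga
mmu-miR-21a-3p: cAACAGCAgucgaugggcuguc
mmu-miR-221-3p: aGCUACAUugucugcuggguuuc
mmu-miR-222-3p: aGCUACAUcuggcuacugggucu
mmu-miR-221-5p: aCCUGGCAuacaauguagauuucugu
miR-221-3p and miR-222-3p carry the same seed, share their first 8 bases and are identical at 19 of 23 bases when aligned with gaps, and at 11 of 23 without. The other 3 arms have a seed each. Of the mouse mature miRNAs in RefSeq, miR-21c shares the seed of miR-21a-5p, and miR-1928 shares that of miR-221-3p and miR-222-3p. Both were listed with 0 counts in all 9 libraries.

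All 3 hairpins lie on the minus strand. Mir21a is at chr11:86584067-86584158, inside an exon annotated as UTR of Vmp1, which is transcribed from the same strand. Its 5p arm is at chr11:86584120-86584141 and its 3p arm at chr11:86584082-86584103. Mir221 (chrX:19146294-19146388) and Mir222 (chrX:19146893-19146971) are 504 bases apart and overlap no other gene in GENCODE release 21; the nearest, Gm14636, a processed transcript on the same strand, lies 10010 bp from Mir222. The arms of Mir221 are at chrX:19146344-19146369 (5p) and chrX:19146307-19146329 (3p), and miR-222-3p is at chrX:19146901-19146923. The pair of hairpins is printed with the mature arms in capitals, 2 in Mir221 and the 3p arm alone in Mir222, to show where the shared seed sits.
Mir221: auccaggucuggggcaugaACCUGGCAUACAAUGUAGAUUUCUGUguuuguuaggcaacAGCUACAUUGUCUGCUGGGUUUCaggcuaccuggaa
Mir222: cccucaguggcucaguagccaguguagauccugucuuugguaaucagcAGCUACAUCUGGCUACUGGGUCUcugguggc

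Libraries of the control group held 4992339 to 6548379 counts and those of the LLC group 6216566 to 7833161. Levels are given as CPM, a library's counts scaled to a common total, after scaling with edgeR's TMM factors, which lay between 0.953 and 1.15 for control mice and between 0.762 (LLC 5) and 1.11 for LLC mice, with LLC 1 next to lowest at 0.876. A count of 3, taken as the lowest level that a library can show, was worth 0.344 to 0.593 CPM, and this covers counting error only. A miRNA was tested, and is called expressed, if its count passed 32 in 1 or more libraries (304 of 932 with any count). Of the tissue's own markers, miR-133a-3p and miR-133b-3p of the muscle fibre were abundant, whereas miR-1a-3p was low (control group 20.9 ± 2.35 CPM, SD, n = 4; LLC group 17.4 ± 6.44 CPM, n = 5) and miR-206-3p had at most 3 counts in a library.

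The 6 arms spanned more than 3 orders of magnitude, and their order was the same in each of the 9 muscles. miR-21a-5p was the highest, at 1923 ± 148 CPM in control mice (SD, n = 4) and 2207 ± 191 CPM in LLC mice (n = 5), and ranked 28 of the 304 expressed miRNAs by mean CPM. miR-221-3p followed at rank 108 and miR-21a-3p at rank 130. miR-221-5p stood at rank 225 and miR-222-3p at rank 300, near the end of the expressed miRNAs, and miR-222-5p did not reach the minimum for expression. Each neighbouring pair in this order was apart in 9 of 9 libraries, without overlap between the mice. The nearest neighbours were miR-221-3p, whose lowest mouse had 81.4 CPM, and miR-21a-3p, whose highest mouse had 61.8 CPM, with a ratio of means of 1.84. The other steps were 20.4-fold between miR-21a-5p and miR-221-3p, 5.19-fold between miR-21a-3p and miR-221-5p, 3.27-fold between miR-221-5p and miR-222-3p and 5.00-fold between both arms of miR-222. A read covers a whole arm, so these levels were not divided by length, and bias of the library kit between sequences was not tested.

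**Figure D1:**
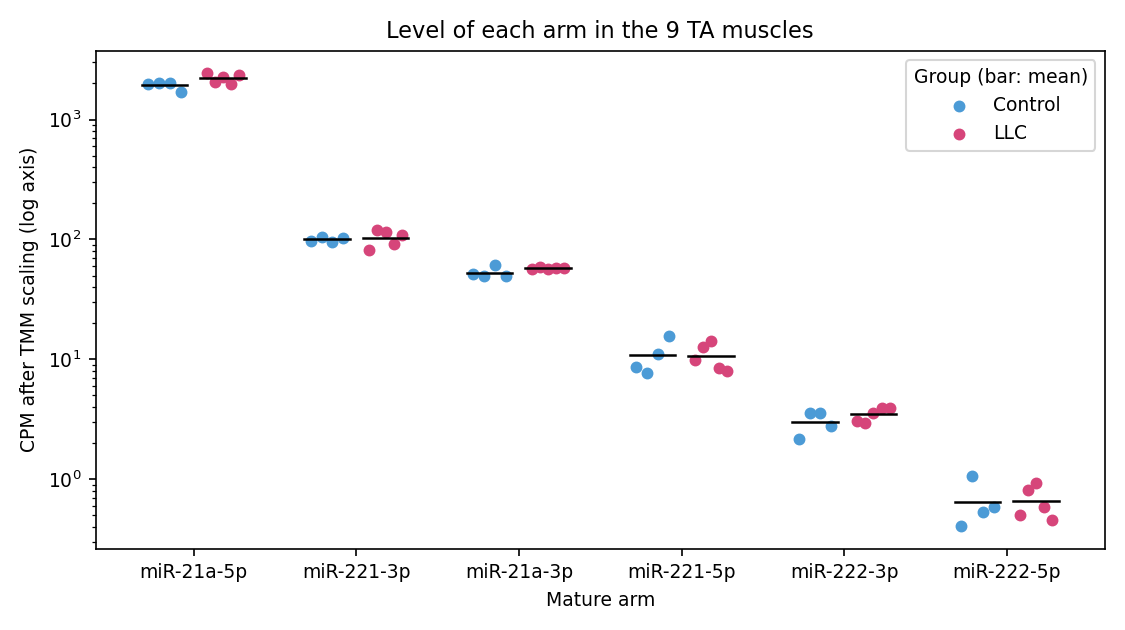
Level of each of the 6 arms in the 9 TA muscles as CPM after TMM scaling (log axis), with a point per mouse and a bar at the mean of the control group (blue, 4 mice) and of the LLC group (red, 5 mice). The arms fall in 6 steps that do not overlap, from 1705 to 2427 CPM for miR-21a-5p down to 0.406 to 1.06 CPM for miR-222-5p.

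None of the 5 expressed arms was called different between the LLC and the control group. The quasi-likelihood test of edgeR, adjusted over the 304 miRNAs by Benjamini-Hochberg, called 0 of the 5 arms (fold change of 1.5 or more, adjusted p not above 0.05) and 0% of all expressed miRNAs, the lowest adjusted p of any being 0.0812. At an unadjusted edgeR p of at most 0.05 it was also 0 of 5, against 16.4% of all expressed miRNAs. DESeq2 called 0 of the 5, against 2.3% of all expressed miRNAs (7 of 304), and gave 1 of them, miR-21a-5p, an unadjusted p of 0.0402, a level that 17.8% of all reached. limma with voom called 0 of the 5 and 0% of all, with 0 of the 5 at that unadjusted level, against 15.1% of all. The authors reported more differentially expressed miRNAs at the same thresholds than any of these fits, and the reason was not tested. CPM of the groups did not separate for any of the 5, against 5.92% of all expressed miRNAs without overlap. The fitted log2-fold change lay above 0 for 5 of 5 arms, against 46.4% of all miRNAs, with a median of 0.12 over the arms (0.07 without Control 1 and 0.20 without Control 3) and -0.02 over all. No common direction can be read from this: miR-222-3p passed the minimum count only through a mouse of the LLC group, miR-221-5p was at 0.00, and the sign hung on the scaling. Under library totals alone the median over all miRNAs moved to -0.17, the median over the 5 arms to -0.02, and 3 of them (miR-21a-3p, miR-221-3p and miR-221-5p) fell below 0. In bulk muscle, fewer cells of a type and less RNA per cell cannot be told apart, and the values below are those of the whole muscle.

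miR-21a-5p, the guide arm of Mir21a, had the largest level and the lowest unadjusted edgeR p of the 5 arms (0.0867), though not the largest fitted change. Control 1 to 4 had 1964, 2015, 2010 and 1705 CPM. LLC 1, 2, 3, 5 and 6 had 2427, 2040, 2245, 1983 and 2340 CPM. Of the 5 LLC mice, 4 lay above every control mouse, but LLC 5 lay within the control range and LLC 2 was only just above it. Under library totals alone, only LLC 3 and LLC 6 were above the highest control mouse and LLC 5 was below the lowest. The log2-fold change was 0.20 (SE 0.108, 95% interval -0.03 to 0.43, a fold of 0.978 to 1.35; edgeR adjusted p = 0.326). The exact permutation test over the 126 ways to divide 9 mice into 4 and 5 (two-sided, smallest possible p = 0.00794) gave p = 0.0714, or 0.397 adjusted over the 304 miRNAs. Under library totals alone the log2-fold change was 0.06 (edgeR adjusted p = 0.899) and the exact permutation p 0.817. One mouse of each group also bore on this value: without LLC 5 the log2-fold change was 0.23 with an unadjusted edgeR p of 0.0439 (adjusted p = 0.427) and an exact permutation p of 0.0286, and without Control 4, the lowest control, it was 0.16. The counts behind these levels were 8629 to 20409 per library, 0.151 to 0.261% of all counts, so that counting error was under 1% (0.897 and 0.821% in the groups). The spread between mice was 7.67% of the mean for control and 8.65% for LLC mice. The within-group SD on the log2 scale was at percentile 5.92 of the expressed miRNAs after TMM scaling, but at percentile 28.6 under library totals alone, where the mice differed by 13.6% and 19.6% of the mean.

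miR-21a-3p, the partner arm that is mostly degraded, showed no difference beyond the spread of the control mice. Control 1 to 4 had 51.6, 49.3, 61.8 and 49.4 CPM, and the LLC mice had 56.9, 58.6, 56.3, 58.0 and 57.7 CPM. All 5 LLC mice lay inside the control range, between Control 1 and Control 3. The log2-fold change was 0.12 (SE 0.120, 95% interval -0.14 to 0.37; edgeR p = 0.342, adjusted p = 0.591), and the exact permutation test gave p = 0.127. Control 3 alone made the groups overlap. Without it the difference in log2 CPM was 0.20 with an exact permutation p of 0.0179, the smallest that 3 against 5 mice allow, while edgeR's log2-fold change was 0.20 with an adjusted p of 0.401. The LLC mice differed by 1.59% of their mean, less than the 5.11% that their counts of 294 to 503 lead to by counting alone, and the control mice by 11.2%. On the log2 scale the within-group SD was at percentile 2.63 of the expressed miRNAs. Both the position and the evenness of the LLC mice held only after TMM scaling: under library totals alone 2 of them lay above and 2 below the control range, and they differed by 14.7% of their mean, the control mice by 7.41%.

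miR-221-3p, which carries the seed shared with miR-222-3p, had nearly equal means but unequal spreads. The control mice had 97.6, 105, 94.6 and 103 CPM (mean 100.2 ± 4.98, SD, n = 4). The LLC mice had 81.4, 120, 116, 91.0 and 108 CPM (103 ± 16.6, n = 5). Every LLC mouse lay outside the control range, 3 of them above it (LLC 2, 3 and 6) and 2 below it (LLC 1 and 5). Under library totals alone LLC 2 and LLC 6 fell inside that range (90.1 to 122 CPM), while LLC 1 and 5 stayed below it and LLC 3 above it. LLC 1 and 5 are also the libraries with the lowest TMM factors. The log2-fold change was 0.05 (SE 0.134, 95% interval -0.24 to 0.33; edgeR p = 0.735, adjusted p = 0.853; exact permutation p = 0.825), and without LLC 2 it was -0.01. The coefficient of variation was 16.1% for LLC and 4.97% for control mice, whereas counting alone gives 3.78 and 3.94%; under library totals alone it was 27.8 and 12.4%. Of the 304 expressed miRNAs, 11 had all LLC mice outside the control range with some on each side. A test of the unequal spread was not made.

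miR-221-5p, the partner arm of miR-221-3p, was lower and more variable, with 43 to 107 counts per library. The control mice had 8.67, 7.68, 11.2 and 15.6 CPM, and the LLC mice had 9.79, 12.7, 14.2, 8.49 and 8.02 CPM. The LLC mice all lay inside the control range, which Control 4 set at its upper and Control 2 at its lower end; under library totals alone LLC 1 and 5 lay below it. The log2-fold change was 0.00 (SE 0.239, 95% interval -0.51 to 0.51; edgeR adjusted p = 0.998; exact permutation p = 1). The coefficient of variation was 32.8% in the control and 25.4% in the LLC group, above the 12.3 and 11.9% from counting alone, and the within-group SD was at percentile 82.6 of the expressed miRNAs.

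The arms of Mir222 were close to the limit of the depth. miR-222-3p had 14 to 34 counts per library and counted as expressed only through LLC 6, with 34 counts. The control mice had 2.17, 3.58, 3.54 and 2.77 CPM, and the LLC mice had 3.04, 2.93, 3.59, 3.95 and 3.90 CPM. LLC 3, 5 and 6 lay above every control mouse, LLC 3 by a small margin, and LLC 1 and 2 within the control range; under library totals alone only LLC 6 was above it. The log2-fold change was 0.21 (SE 0.251, 95% interval -0.32 to 0.75; edgeR p = 0.408, adjusted p = 0.644; exact permutation p = 0.230), but 0.07 without Control 1 and 0.33 without Control 2. The authors' mapping asked for a perfect match over the first 8 bases, the very stretch that miR-221-3p and miR-222-3p share, so that whether short reads of miR-221-3p were counted as miR-222-3p was not tested. The spread between control mice, 22.5% of the mean, was no larger than the 22.8% expected from counting. miR-222-5p had 3, 8, 3 and 3 counts in the control mice and 3, 5, 7, 3 and 4 in the LLC mice. Summed over the mice, 17 counts in the control and 22 in the LLC libraries gave a ratio of rates of 0.899 (LLC over control, per total count), with an exact 95% interval of 0.456 to 1.80 that covers counting error only. After TMM scaling the means were 0.647 ± 0.286 CPM in control and 0.660 ± 0.203 CPM in LLC mice, so the direction turned with the scaling. The edgeR fit without a filter, which includes the variation between mice, gave a log2-fold change of 0.04 with a fold interval of 0.476 to 2.23. A difference of any size within that interval could not be told from no difference in these data.

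**Figure D2:**
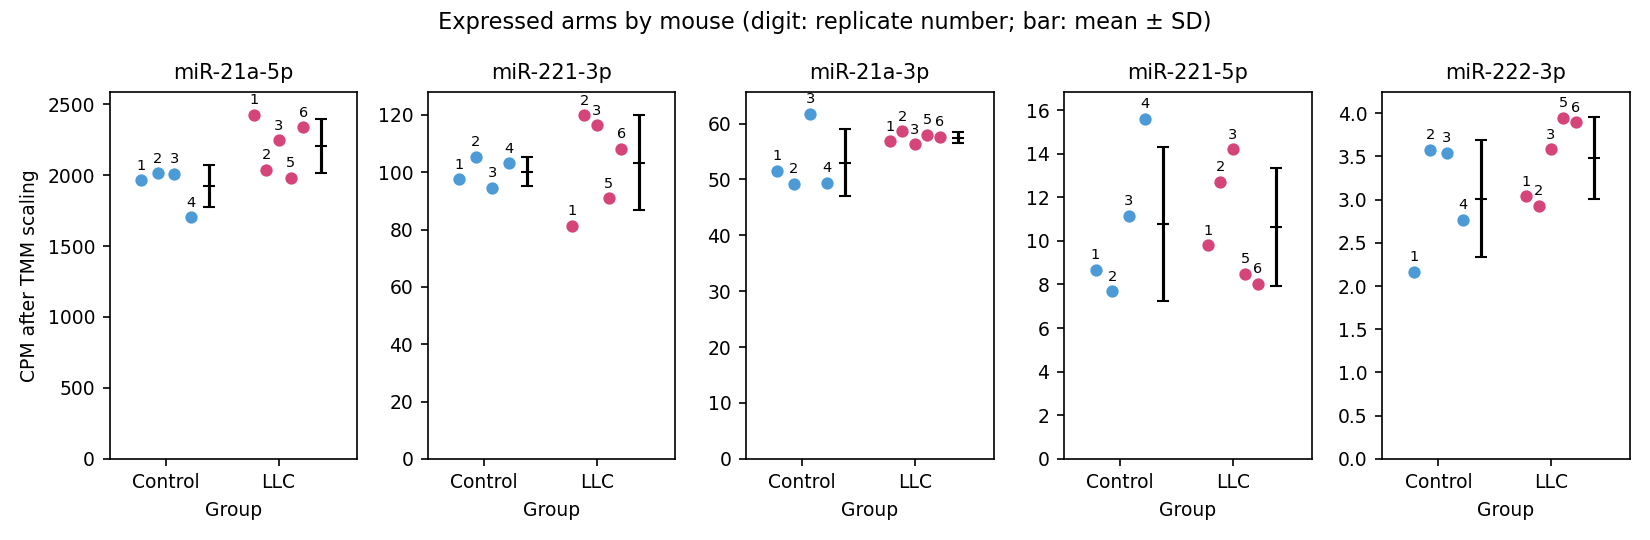
CPM after TMM scaling of the 5 expressed arms in each mouse (digits: replicate number; blue: control group; red: LLC group; bars: mean ± SD, n = 4 and 5), each arm on its own linear axis from 0. The LLC mice lie around both sides of the control mice for miR-221-3p (81.4 to 120 CPM), within the control range for miR-21a-3p (56.3 to 58.6 CPM) and largely above it for miR-21a-5p (1983 to 2427 CPM), positions that change under library totals alone.

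A p that misses the threshold does not show equal levels, so the intervals of the differences were read. For miR-21a-5p, miR-21a-3p, miR-221-3p and miR-221-5p the 95% interval lay within 1.5-fold in both directions, against 52.6% of the expressed miRNAs (160 of 304). The bounds of the fold were 0.978 and 1.35 for miR-21a-5p, 0.909 and 1.30 for miR-21a-3p, 0.848 and 1.26 for miR-221-3p, and 0.704 and 1.43 for miR-221-5p. Only for miR-222-3p did the interval reach past 1.5-fold, from 0.801 to 1.68. Over 16 settings of the edgeR fit (that reported, other scalings, filters, the replicate number as a block, and leaving out each mouse), the intervals of miR-21a-5p, miR-21a-3p and miR-221-3p stayed within 1.5-fold in 16. The highest upper bounds of these were 1.45, 1.39 and 1.39 and the lowest lower bounds 0.808, 0.750 and 0.698. That of miR-221-5p stayed within it in 5 of 16, and that of miR-222-3p in 0 of 15. edgeR also estimates the variation between mice, drawing each miRNA toward the others, so this is not the spread in percent of the mean given above. It was 12.9% for miR-21a-5p, 13.1% for miR-21a-3p and 15.2% for miR-221-3p, against a median of 17.1% for all, and 22.7% for miR-221-5p.

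**Figure D3:**
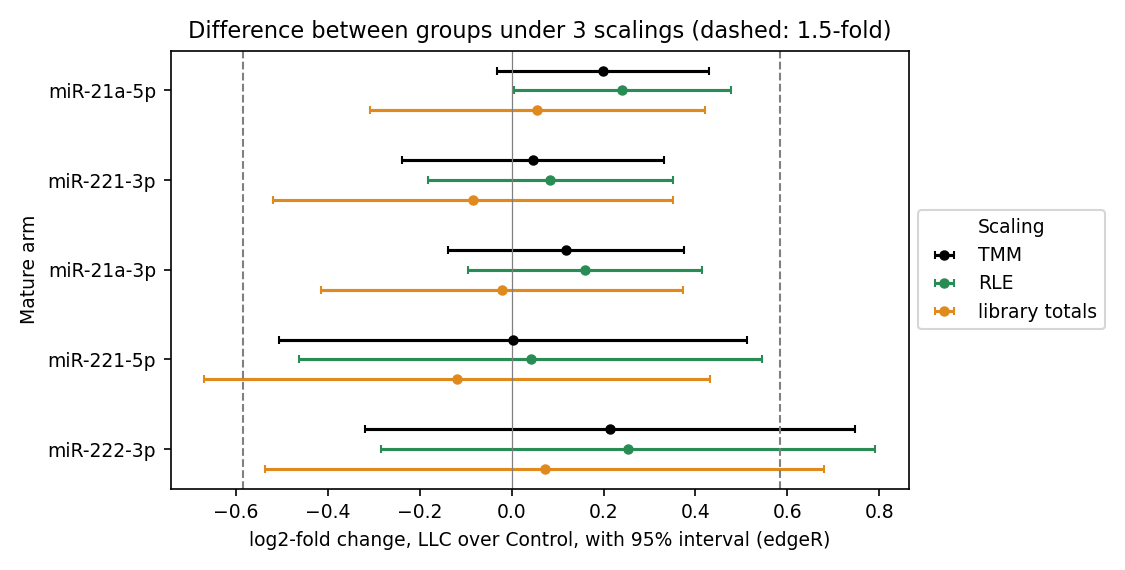
Fitted log2-fold change (LLC over control) of the 5 expressed arms with its 95% interval from edgeR, under TMM factors (black), RLE factors (green) and library totals alone (orange), with dashed lines at a 1.5-fold change. The interval of miR-21a-5p runs from -0.03 to 0.43 under TMM and stays inside the dashed lines under each scaling, while that of miR-222-3p crosses the right line.

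Ratios between arms of a library do not depend on the scaling between libraries. miR-21a-5p exceeded miR-21a-3p in each mouse, 36.5 ± 3.72-fold in control mice (SD, n = 4) and 38.4 ± 3.74-fold in LLC mice (n = 5). The ratio of 3p to 5p was 0.0263, 0.0245, 0.0307 and 0.0290 in the control mice and 0.0234, 0.0288, 0.0251, 0.0293 and 0.0246 in the LLC mice, and the groups overlapped. The difference of its log2 was -0.07 (two-sided exact permutation p = 0.452, adjusted over 74 hairpins with both arms expressed, p = 0.653). Single mice moved it, to -0.02 without Control 3, -0.03 without LLC 1 and -0.05 without Control 4, and to -0.13 without Control 2 and -0.11 without LLC 5. This ratio was among the steadiest, with a within-group SD of 0.144 on the log2 scale, at percentile 4.05 of the 74 hairpins, whose median was 0.355.

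In Mir221 the 3p arm was the more abundant one. Its ratio to the 5p arm was 11.3, 13.7, 8.48 and 6.61 in the control mice and 8.31, 9.44, 8.19, 10.7 and 13.5 in the LLC mice, and the LLC mice lay within the control range. The log2 ratio differed by 0.03 (exact permutation p = 0.913, adjusted p = 0.946), a difference that took the opposite sign without Control 3, Control 4 or LLC 6 (-0.03, -0.15 and -0.08). Its within-group SD was 0.376, at percentile 56.8 of the hairpins. Of the 74 hairpins, 1.35% had arm ratios that did not overlap between the groups, and neither Mir21a nor Mir221 was among them.

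The neighbouring hairpins Mir221 and Mir222 gave their 3p arms at very unequal levels. The ratio of miR-221-3p to miR-222-3p was 45.1, 29.5, 26.7 and 37.3 in the control mice and 26.8, 40.9, 32.4, 23.1 and 27.8 in the LLC mice. Only LLC 5 fell below the control range, and the difference of the log2 ratio was -0.19 (exact permutation p = 0.405). It was -0.05 without Control 1 and -0.10 without LLC 5, and -0.30 without either Control 3 or LLC 2. Since both arms carry the seed shown in capitals above, their sum is the level of that seed, of which miR-222-3p made up 2.17 to 4.16%. The summed level was 103 ± 5.12 CPM in control mice (n = 4) and 107 ± 16.6 CPM in LLC mice (n = 5), a log2 difference of 0.04 (exact permutation p = 0.794) that was -0.02 without LLC 2 and -0.01 without LLC 3.

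**Figure D4:**
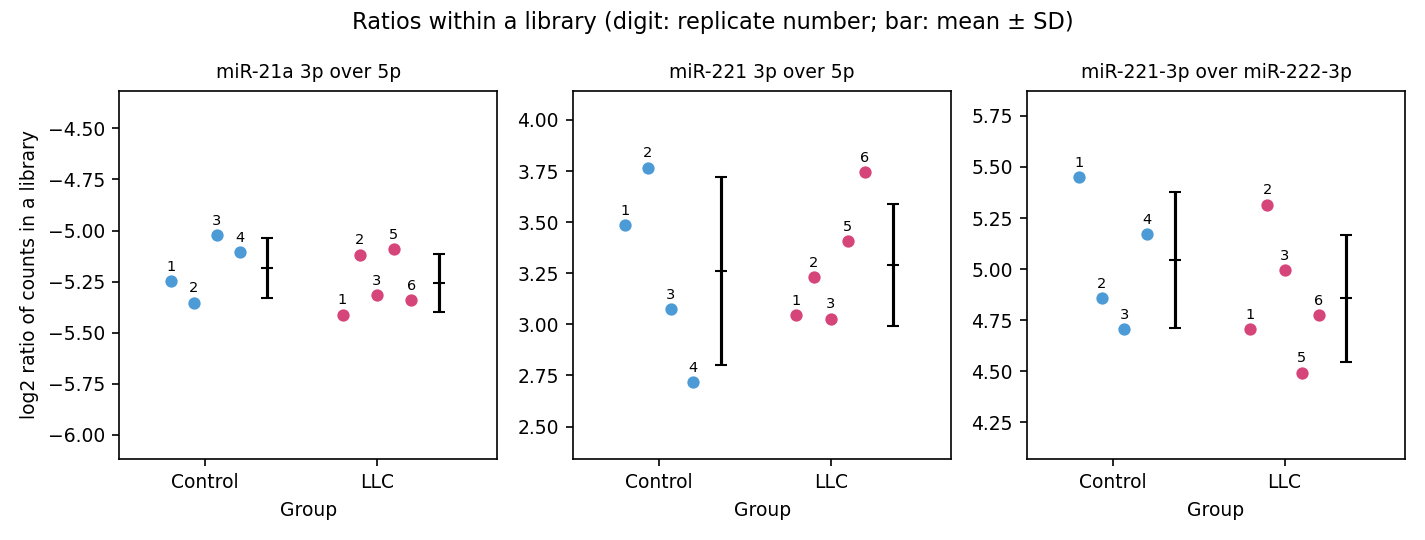
log2 ratio of the counts of a pair of arms within each library (digits: replicate number; blue: control group; red: LLC group; bars: mean ± SD, n = 4 and 5), on 3 axes of equal span. The points of miR-21a 3p over 5p keep within -5.41 and -5.02, whereas miR-221 3p over 5p runs from 2.72 to 3.77, and the groups overlap in each panel.

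After TMM scaling, no correlation between the arms of one hairpin passed its test. Over the 9 mice, log2 CPM of miR-21a-5p and miR-21a-3p had Pearson's r = 0.489 (exact permutation p = 0.185, adjusted over 4 pairs p = 0.673) and Spearman's rho = 0.233 (exact permutation p = 0.552), and r was 0.208 without the 2 mice farthest from the median. Without TMM scaling the same r was 0.837 (exact permutation p = 0.00496), a value that holds the library scaling common to both arms. After TMM scaling the highest mouse exceeded the lowest by only 1.42-fold for miR-21a-5p and 1.25-fold for miR-21a-3p. The ratio of these arms was among the steadiest of the hairpins, so the r after scaling cannot show that they vary apart. For miR-221-3p and miR-221-5p r was 0.361 (exact permutation p = 0.336; rho = 0.200, p = 0.613). For miR-221-3p and miR-222-3p r was 0.0628 (exact permutation p = 0.872; rho = 0.0167, p = 0.982). Between miR-21a-5p and miR-221-3p, the guide arms of separate loci, r was -0.134 (exact permutation p = 0.735; rho = 0.183, p = 0.644), but 0.546 without the 2 farthest mice and 0.665 under library totals, so that its sign rests on those mice and on the scaling.

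The expressed miRNAs most like each guide arm over the 9 mice were named by Pearson's r of log2 CPM among 299 miRNAs. For miR-21a-5p these were miR-103-3p (r = 0.897, rho = 0.767), miR-7068-3p (r = 0.828, rho = 0.883) and miR-98-5p (r = 0.818, rho = 0.600), the last a member of the let-7 family. For miR-221-3p they were miR-322-3p (r = 0.911, rho = 0.917), miR-142a-5p of leukocytes (r = 0.875, rho = 0.850) and miR-148b-5p (r = 0.803, rho = 0.733). The exact permutation p was 0.000879 to 0.00669 for r and 0.00131 to 0.0968 for rho. None of the 6 relations passed adjustment over the 299, with exact permutation p adjusted to 0.248 for miR-103-3p and 0.263 for miR-322-3p at the lowest and 0.546 at the highest. The miRNAs compared share the scaling of each library. Without the 2 farthest mice r fell to between 0.559 and 0.767 for 5 of the 6, and was 0.852 for miR-98-5p. miR-142a-5p had 178 ± 14.3 CPM in control mice and 180 ± 40.0 CPM in LLC mice, and thus also a wider spread among the latter.

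Other miRNAs of muscle injury, inflammation and regeneration formed a list of 18, of which 16 were expressed. edgeR called 0 of them, against the same 0% of all miRNAs. At an unadjusted p of at most 0.05 there were 3 higher (miR-29b-3p, miR-146a-5p and miR-146b-5p, named after their values were seen) and 0 lower, against 16.4% in either direction, and the lowest adjusted p was 0.0812 for miR-29b-3p. The fitted change was above 0 for 9 and below 0 for 7, with a median log2-fold change of 0.05, against -0.02 over all. The most abundant of the list were miR-486a-5p, an erythroid and muscle miRNA, at 66714 ± 15130 CPM in control and 76375 ± 15637 CPM in LLC mice (log2-fold change 0.20), and miR-181a-5p at 24723 ± 3385 and 25351 ± 3520 CPM (0.04). The muscle miRNAs miR-133a-3p and miR-133b-3p followed, with 20321 ± 3384 and 18718 ± 1381 CPM (-0.12) and with 4619 ± 731 and 4187 ± 511 CPM (-0.14). miR-21a-5p lay below these 4 and had a fitted change close to that of miR-486a-5p, with a smaller spread between mice. miR-486b-5p had the same mean over the 9 libraries as miR-486a-5p (72081 CPM) and the same fitted change, so these counts do not tell them apart.

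**Figure D5:**
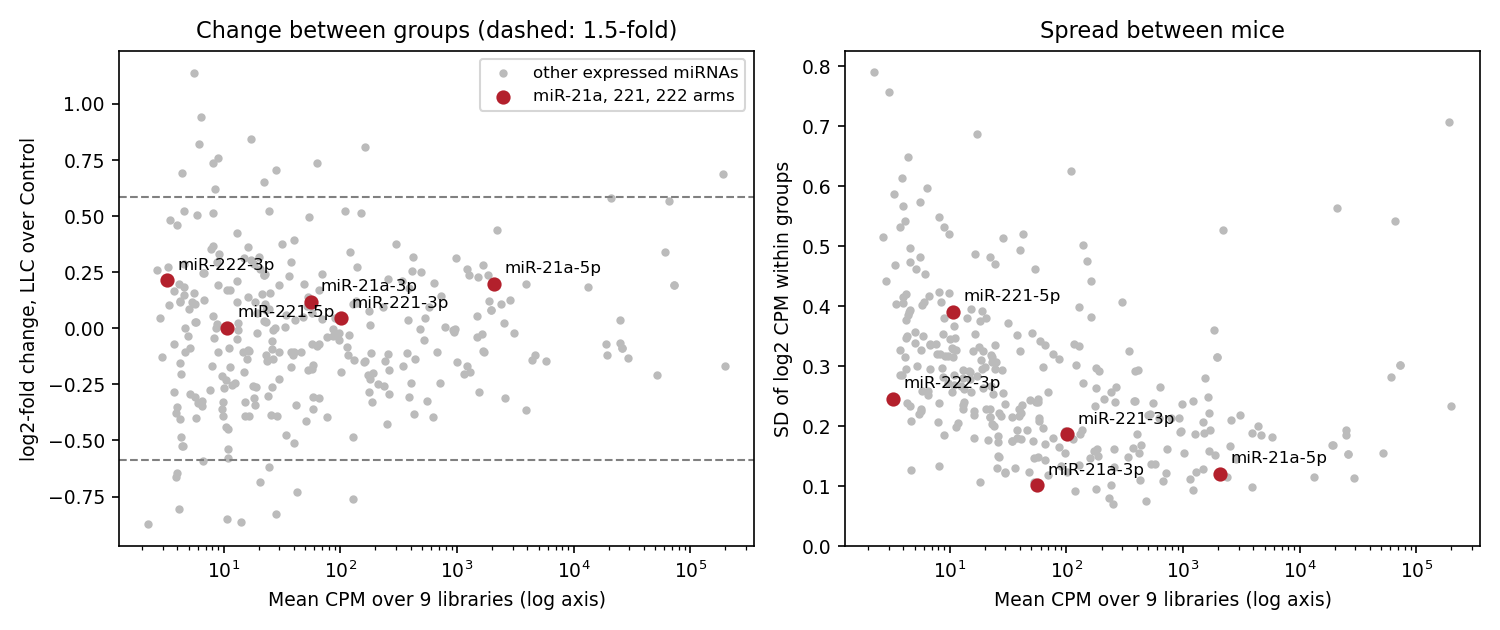
Fitted log2-fold change (left, LLC over control, dashed lines at 1.5-fold) and SD of log2 CPM within groups (right) of the 304 expressed miRNAs against mean CPM over the 9 libraries (log axis), with the 5 expressed arms in red. The arms lie between 0.00 and 0.21 on the left; on the right miR-21a-3p and miR-21a-5p lie near the lower edge after TMM scaling and miR-221-5p (0.391) above the median of 0.256.

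Markers of the cell types in the muscle were compared as lists, and 0 miRNAs were called in any, as were 0% of all expressed miRNAs. The counts at an unadjusted edgeR p of at most 0.05 stand against 16.4% of all expressed miRNAs at that level. Of the 5 leukocyte markers, miR-223-3p was higher and miR-150-5p lower at that level, and the fitted change was above 0 for 4 and below 0 for 1. The summed level was 691 to 800 CPM in the control mice and 583 to 742 CPM in the LLC mice. Most of this sum was miR-150-5p, at 492 ± 43.8 CPM in control and 377 ± 23.1 CPM in LLC mice. Of the 3 erythroid markers, 3 were lower at that level, with sums of 215 to 325 and 92.4 to 220 CPM. The endothelial list had 1 of 2 lower (miR-126a-3p; sums of 26211 to 33929 and 24162 to 29972 CPM), the list of fibroblast and smooth muscle markers 1 of 5 lower (miR-199a-5p; 51315 to 67465 and 53039 to 96732 CPM), and the muscle fibre list 0 of 5 expressed markers in either direction (21902 to 30875 and 20862 to 25266 CPM). The sum of the fibroblast and smooth muscle list was mostly miR-143-3p, at 53250 ± 7087 CPM in control and 67463 ± 16307 CPM in LLC mice (log2-fold change 0.34). Of the 5 markers of that list, 2 had a fitted change above 0 and 3 below 0. Of the 5 expressed muscle fibre markers, 0 had a fitted change above 0 and 5 below 0, against 46.4% of all expressed miRNAs above 0. Their median log2-fold change was -0.26, and most of the sum of that list was miR-133a-3p. None of the 6 epithelial markers was expressed, and each had at most 23 counts in a library. The part of these cell types in the levels of miR-21a, miR-221 and miR-222 was not tested.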

How the data were processed

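Small RNA from the TA muscle of 4 control and 5 LLC mice had been sequenced as 50-base single-end reads (TruSeq, Illumina). The authors mapped them with Bowtie to miRBase 21, with no mismatch in the first 8 bases and all best alignments kept, and deposited whole counts per mature miRNA, without normalization or filter. A sixth LLC library was removed by the authors and is not analysed here.

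Counts were scaled by TMM and compared with the quasi-likelihood F test of edgeR 4.0.16 (R 4.3.3) without a block, with Benjamini-Hochberg adjustment over the 304 expressed miRNAs (1 library or more above 32 counts); the study's own tool, DESeq2 (here 1.42.0), and limma 3.58.1 were alternatives. Single values used two-sided exact permutation tests with a prior count of 2 in log2 CPM and 0.5 added to counts in ratios (Python 3.11.15, scipy 1.17.1). Intervals are 95%. The calls of the edgeR fit were checked on simulated counts, and the permutation test of group means on random values against scipy. The intervals and the fits by DESeq2 and limma were not checked on simulated data. Totals per library were 4992339 to 7833161. Groups and replicate numbers came from the labels. Same-numbered mice are different animals; the correlation of their deviations was -0.249 to -0.0899 in 3 pairs. No 2 libraries of the same group agreed within sampling noise (16 pairs, lowest chi-square per degree of freedom 124). Pairs of libraries across the groups were not compared. Loci came from GENCODE release 21 (GRCm38) and sequences from RefSeq (GRCm38.p6).

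The miRNAs and lists were chosen with earlier results of these data known. Those named are the 6 arms, miRNAs of the same seed, the 3 most like miR-21a-5p and miR-221-3p, and up to 4 of the highest mean CPM per list; any other was named after its values were seen.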

Additional observations from a re-analysis of the deposited data

Results flagged for a closer look

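Among 20 sets of values from the mice of 1 group (levels, ratios and sums of the arms), 1 had a mouse far from the others. Control 4 had 1705 CPM of miR-21a-5p, while the other 3 control mice had 1964 to 2015 CPM, and the gap made up 0.836 of the range of the group, above the limit of 0.829 for 4 values (Dixon). Chance gives about 1 such mouse in 20 sets. Control 4 also had the lowest total count (4992339) and the highest level of miR-221-5p in its group, and whether these go with its miR-21a-5p level was not tested.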

How the results depend on the processing

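None of the arms was called in any alternative: 0 with library totals alone, RLE factors, the 5 most abundant miRNAs left out of the totals, no filter (22 of 932 miRNAs called), at least 10 counts in every library, DESeq2 (7 of 304 called), limma with voom, no fold-change minimum, a replicate block, and each mouse left out (at most 8 miRNAs called, without LLC 3). The log2-fold change of miR-21a-5p was above 0 in 17 of 17 alternatives, from 0.06 under library totals to 0.24, with an adjusted p of 0.243 to 0.899. Its unadjusted p was at most 0.05 in 3 of them (0.0455 with RLE factors, 0.0402 with DESeq2, 0.0439 without LLC 5).

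No value whose direction turned passed its test under either setting. Under library totals alone, the log2-fold change was -0.022 for miR-21a-3p, -0.084 for miR-221-3p and -0.12 for miR-221-5p, the differences tested by permutation were -0.031 for miR-21a-3p and -0.12 for miR-221-3p, the sum of miR-221-3p and miR-222-3p differed by -0.12, and r of miR-21a-5p with miR-221-3p was 0.665. Without the 5 most abundant miRNAs in the totals, miR-221-5p was at -0.018, and with a prior count of 0.5 its permuted difference, -1.2e-05 in the main analysis, was 0.00032. When single mice were left out, the log2-fold change ranged from -0.012 to 0.12 for miR-221-3p and from -0.12 to 0.24 for miR-221-5p (0.07 to 0.33 for miR-222-3p, with no turn), the permuted differences from -0.026 to 0.11 and from -0.14 to 0.19, the log2 ratio of the miR-221 arms from -0.15 to 0.20, and the summed level from -0.017 to 0.12. The cause was not tested.

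Same-numbered mice did not deviate together. The replicate block gave log2-fold changes of 0.16 for miR-21a-5p, 0.09 for miR-21a-3p, 0.08 for miR-221-3p, 0.42 for miR-221-5p (edgeR adjusted p = 0.706) and 0.05 for miR-222-3p. Control 4, LLC 5 and LLC 6 have no same-numbered mouse in the other group. The differences of that fit therefore rest on 3 pairs of different animals, not on all 9 mice. miR-222-3p could not be tested without LLC 6, since it then has no library over 32 counts. Depth limits both arms of miR-222, and with 4 and 5 mice the intervals, not the missed thresholds, bound the differences.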
